A study of Homo sapiens with 2 samples.

Results

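Expression of 9 transcription factors that set lineage in the intestinal epithelium was examined in HT-29 cells after knockdown of IFITM1. HT-29 is an established human colorectal adenocarcinoma line, and IFITM1 encodes an interferon-induced transmembrane protein. An siRNA against IFITM1 (siIFITM1) was given to one culture. The other, the baseline, was given an siRNA against the luciferase of the firefly (siLuc), which human cells do not have. Both were harvested 72 h after transfection, and total RNA of each was read on 1 single-colour Affymetrix array. The siRNA sequences are not given in the sources used here. With 1 array per siRNA there is no replicate error to compare a difference with, so sizes are described and no test is given. The factors were taken as every probe set (a group of short probes that reads 1 transcript) that the platform annotation assigns to 1 of the 9 genes and to no other gene. Of the 9 genes, 8 had such probe sets, 18 in all, out of 19775 genes and 41091 probe sets that name 1 gene. No probe set in the annotation used here named HNF4A, which is therefore not analysed here.

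The intestinal lining is built from endoderm, and its identity is held by DNA-binding proteins that open and activate epithelial genes. GATA6, a zinc finger protein, and the forkhead proteins FOXA1 and FOXA2 act early, in the endoderm, and stay active in the adult epithelium. The caudal homeobox proteins CDX1 and CDX2 give the epithelium its intestinal character, and with the nuclear receptor HNF4A they drive genes of absorptive cells. In the crypt, Notch signalling separates absorptive from secretory cells by repressing ATOH1, a basic helix-loop-helix protein needed for secretory cells. SPDEF, an ETS family protein, acts downstream of ATOH1 in the maturation of goblet cells, and KLF4, a zinc finger protein, is known in goblet cells and in cells that have left the cell cycle. The factors are described below in these roles, as secretory (SPDEF, ATOH1, KLF4), absorptive (CDX1, CDX2, HNF4A) and endoderm factors (GATA6, FOXA1, FOXA2).

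Values are MAS5 signals, a brightness on a linear scale, and ratios are log2 of siIFITM1 over siLuc. Signals of different probe sets are not comparable as amounts of RNA, so each was set against itself on the other array. Sums over marker lists are likewise read only between the arrays. A probe set passed the filter on dim signals if its mean log2 signal was at or above the array-wide median, a signal of 57.4, which is called the floor. Those that reached the 75th percentile (a signal of 393) are termed brighter, and the rest of those that passed dimmer. A gene with several probe sets was represented by the brightest. The floor is a rank on these arrays and not a detection call. Of the 18 probe sets, 13 passed, and of the 8 genes, 5 passed: SPDEF, KLF4, GATA6, FOXA1 and FOXA2. As a yardstick, log2 ratios of 1 gene's probe sets differed among themselves with an SD of 0.193 for brighter, 0.496 for dimmer and 1.66 for probe sets below the floor. This yardstick holds differences between probe sets and no differences between cultures.

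IFITM1 itself had a signal of 237 with siIFITM1 and 640 with siLuc, 37.1% of the baseline. It was read by the 1 probe set that names it alone, of a kind whose probes may also bind other transcripts. The 18 hybridisation controls, RNAs added in fixed amounts, had log2 ratios from -0.13 to 0.05. All 10 colon epithelial markers examined (EPCAM, CDH1, KRT8, KRT18, KRT19, KRT20, VIL1, CDH17, CEACAM5 and LGALS4) were brighter genes on these arrays, with log2 ratios from -0.17 to 0.36. Of the markers of leukocytes, 2 of 4 measured passed the filter, with a summed signal of 20889 with siIFITM1 and 24276 with siLuc. The sum follows lysozyme (LYZ), which secretory epithelial cells also make, at 20614 with siIFITM1 and 23964 with siLuc. The other that passed, CD14, had 185 with siIFITM1 and 232 with siLuc. PTPRC, which defines leukocytes, was below the floor on both arrays. CD3E, which also did not pass, had 40.5 with siIFITM1 and 67.1, above the floor, with siLuc. For fibroblasts 3 of 6 markers passed, with a summed signal of 728 with siIFITM1 and 606 with siLuc. Among them LUM had 386 with siIFITM1 and 132 with siLuc (log2 ratio 1.54), while COL1A1 was at -0.49 and DCN at -0.51. The siIFITM1 signal of DCN was 52.7, below the floor, against 74.9 with siLuc. For endothelium 1 of 4 passed, with a summed signal of 209 with siIFITM1 and 223 with siLuc. Their part in the results was not tested.

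Across the array, 370 of 12225 genes that passed the filter were at least 2-fold apart, which is 3.03%. Of the 5 lineage factors that passed, 1 was, FOXA2, and its log2 ratio of -1.01 stood at the line itself. Median centring, quantile normalization, a loess trend, a pseudocount or the mean over probe sets each put FOXA2 just short of 2-fold, between -0.997 and -0.937. The share depended on signal, at 0.269% of the 7793 brighter genes and 7.87% of the 4432 dimmer genes, and all 5 factors were brighter genes. Below 0 were 2 of the 5 factors, FOXA2 and SPDEF, beside 52.6% of all genes that passed. The median log2 ratio of the 5 was 0.00, and that of all genes that passed was -0.02. These 5 genes passed on the mean of both arrays, so the count leaves out ATOH1, CDX1 and CDX2. Of the 13 probe sets that passed, 9 were below 0, beside 52.1% of all such probe sets that name 1 gene. At least 2-fold lower were 3 of the 13, 1 of SPDEF and 2 of FOXA2, beside 2.06% of all. One of the FOXA2 probe sets passed only through its siLuc signal, and with signals raised to the floor 2 of the 13 were 2-fold lower. None was at least 2-fold higher, beside 1.34% of all. The 9 belong to SPDEF (5), FOXA2 (3) and FOXA1 (1), the last with a signal of 119 on both arrays. Probe sets of 1 gene are not independent, so the share of probe sets counts SPDEF and FOXA2 repeatedly.

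**Figure D1:**
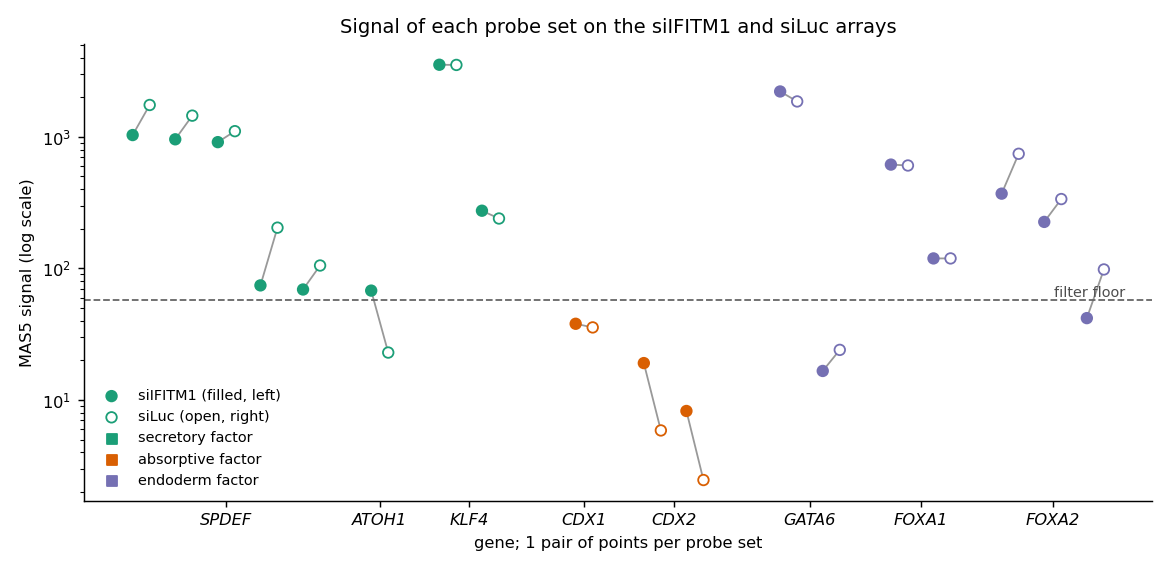
MAS5 signal (log axis) of each of the 18 probe sets, with the siIFITM1 array as a filled point and the siLuc array as an open point to its right, joined by a line; colours mark the role of the gene and the dashed line is the floor of 57.4. Every pair of SPDEF and FOXA2 slopes up towards siLuc, the pairs of KLF4 and FOXA1 are level or nearly so, and all points of CDX1 and CDX2 lie below the floor.

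Among the secretory factors, SPDEF was lower with siIFITM1 at each of its 5 probe sets, KLF4 was close to its baseline, and ATOH1 was too dim for a ratio to be read. Less RNA per cell and fewer cells that hold a transcript cannot be told apart in RNA from a whole culture, and this holds for every gene below. The brightest SPDEF probe set, 220192_x_at, had a signal of 1031 with siIFITM1 and 1744 with siLuc, 59.1% of the baseline (log2 ratio -0.76). The second, 213441_x_at, had 957 with siIFITM1 and 1447 with siLuc (log2 ratio -0.60). The third, 214404_x_at, had 910 with siIFITM1 and 1103 with siLuc, the smallest difference of the 5 (log2 ratio -0.28). All 3 brighter probe sets thus lay further from 0 than the SD of 0.193 for their class, by 3.93, 3.10 and 1.43 times that SD. The 2 dimmer ones were also lower, 213442_x_at with 74.3 in siIFITM1 and 204 in siLuc (log2 ratio -1.46), and 214403_x_at with 69.1 in siIFITM1 and 105 in siLuc (log2 ratio -0.61).

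The SPDEF probe sets disagreed on size, from -1.46 to -0.28, and their mean log2 ratio was -0.74. Only the probe set at -1.46 passed the 2-fold line. Among 281 genes with 5 probe sets past the filter, 11% had all of them below 0. By its brightest probe set SPDEF stood 42nd from the lowest of the 7793 brighter genes, of which 1.77% were at least 1.5-fold lower. All 5 probe sets of SPDEF carry the ID ending _x_at, which marks probes that may also bind other transcripts. Probe sets of 1 gene can also share sequence with one another, so the 5 are not independent readings, and no probe set of SPDEF without that ending was available.

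KLF4 had a signal of 3526 with siIFITM1 and 3515 with siLuc at its brightest probe set, 221841_s_at (log2 ratio 0.00), and 274 with siIFITM1 and 239 with siLuc at the other, 220266_s_at (log2 ratio 0.20). Both lay within the SD of their class, and the ratio of the first changed sign, to -0.02, after quantile normalization. SPDEF minus KLF4, each by its brightest probe set, was -0.76 on the log2 scale. ATOH1 was read by 1 probe set, 221336_at, with 67.8 in siIFITM1 and 22.9 in siLuc. The siIFITM1 signal was above the floor and the siLuc signal was not, so the log2 ratio of 1.56 rests on a value that may not differ from background. Of the 18067 probe sets below the filter that name 1 gene, 22.4% were 2-fold or more above their baseline and 25.9% were 2-fold or more below it. With the siLuc signal of ATOH1 raised to the floor, siIFITM1 was 1.18-fold higher. Of the secretory factors, SPDEF alone had a ratio beyond the SD of its class, and over SPDEF and KLF4, which passed the filter, the median log2 ratio was -0.38.

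The 250 bases before the start of SPDEF are shown because it was the factor with the most probe sets lower together, with ATOH1 and KLF4 as the other secretory factors and CDX2 as the factor whose window held the most motif matches. The sequences are from RefSeq, build GRCh38.p14, and are written 5′ to 3′ along the gene's strand. Of the 8 measured factors, 6 had a window there, and CDX1 and FOXA2 were not among them. Each window was searched on both strands for the forkhead motif, spelled TGTTTAC, and for the motif of the zinc finger proteins of the GATA family, spelled AGATAA. Caudal homeobox proteins were represented by TTTATGG or, in a second form, by TTTATTG. The nuclear receptor motif was CAAAGTC, and that of the KLF family was GGGTGTG. Basic helix-loop-helix proteins were represented by CAGATG or, in a second form, by CAGCTG. Capitals mark a match.
SPDEF (chr6:34556330-34556579, minus strand): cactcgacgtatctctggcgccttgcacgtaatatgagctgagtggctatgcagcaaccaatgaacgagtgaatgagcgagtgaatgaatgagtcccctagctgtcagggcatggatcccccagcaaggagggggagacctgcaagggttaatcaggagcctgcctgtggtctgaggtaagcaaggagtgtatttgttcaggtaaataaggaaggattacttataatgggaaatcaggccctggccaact
ATOH1 (chr4:93828503-93828752, plus strand): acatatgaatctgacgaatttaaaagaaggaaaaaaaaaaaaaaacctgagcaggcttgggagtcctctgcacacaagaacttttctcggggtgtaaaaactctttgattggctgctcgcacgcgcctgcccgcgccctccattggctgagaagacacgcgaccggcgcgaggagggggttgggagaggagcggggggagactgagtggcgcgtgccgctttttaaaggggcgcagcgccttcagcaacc
KLF4 (chr9:107489770-107490019, minus strand): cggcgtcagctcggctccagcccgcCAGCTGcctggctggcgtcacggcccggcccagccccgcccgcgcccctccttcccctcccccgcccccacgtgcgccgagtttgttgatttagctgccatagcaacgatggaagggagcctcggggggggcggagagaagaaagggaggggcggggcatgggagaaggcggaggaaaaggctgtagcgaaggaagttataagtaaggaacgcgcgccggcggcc
CDX2 (chr13:27969316-27969565, minus strand): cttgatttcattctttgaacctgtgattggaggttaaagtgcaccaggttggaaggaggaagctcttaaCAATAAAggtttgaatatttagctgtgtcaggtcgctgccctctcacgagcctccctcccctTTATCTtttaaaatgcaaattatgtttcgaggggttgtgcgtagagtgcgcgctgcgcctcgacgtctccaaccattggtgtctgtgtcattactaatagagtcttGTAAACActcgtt

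Neither SPDEF nor ATOH1 held any of the 8 motifs in this window, and FOXA1 held none either. Each motif alone was found in 2.30% to 14.0% of all windows, so most windows lack any given one. The share of all windows with none of the 8 was not counted, so an empty window is not read as a trait of these factors. The KLF4 window held CAGCTG, which reads the same on both strands, and so did that of GATA6. Of the 35116 windows in the RefSeq table, 14.0% held it. The CDX2 window held 3 matches, each on the opposite strand. They were the caudal motif TTTATTG, found in 3.67% of all windows, the motif AGATAA, found in 9.17%, and the forkhead motif TGTTTAC, found in 2.98% and here from 13 to 7 bases before the start. No matches overlapped. Matches of letters are a description of the sequence and no reading of binding in these cells.

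The absorptive factors that were measured, CDX1 and CDX2, were below the floor on both arrays, and no ratio of theirs could be read. CDX1 had a signal of 37.9 with siIFITM1 and 35.6 with siLuc at its probe set, 206430_at. CDX2 had 19.1 with siIFITM1 and 5.87 with siLuc at 206387_at, and 8.25 with siIFITM1 and 2.46 with siLuc at 231606_at. The CDX2 signals were both higher with siIFITM1, with log2 ratios of 1.70 and 1.74, but the SD among 1 gene's probe sets was 1.66 at such signals, and 48.3% of probe sets below the filter were at least 2-fold apart. All signals of both genes lay below the floor, so raising them to it makes the 2 arrays equal by construction and cannot show whether they differed. A dim probe set does not show that the gene was silent. The group has no median among genes that passed the filter.

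The endoderm factors split, with FOXA2 lower with siIFITM1 at each of its probe sets, FOXA1 level, and GATA6 slightly higher. FOXA2 had a signal of 370 with siIFITM1 and 743 with siLuc at its brightest probe set, 40284_at, 49.8% of the baseline (log2 ratio -1.01). At 210103_s_at it had 225 with siIFITM1 and 336 with siLuc (log2 ratio -0.58), and at 214312_at 41.9 with siIFITM1, below the floor, and 98.1 with siLuc (log2 ratio -1.23, or -0.77 with the siIFITM1 signal raised to the floor). The difference at the brightest probe set was 5.22 times the SD of its class, that at 210103_s_at was 1.16 times, and that at 214312_at was 1.56 times with its siIFITM1 signal at the floor. The brightest and 210103_s_at carry the same transcript accession in the annotation and so are not independent. Among 1623 genes with 3 probe sets past the filter, 21.4% had all of them below 0. By its brightest probe set FOXA2 stood 7th from the lowest of the 7793 brighter genes, of which 0.0898% were at least 2-fold lower. The mean signal of that probe set, 524, was near the limit of 393 for brighter ones, and dimmer ones scattered more (SD 0.496). The multiple of 5.22 and the rank are thus over the whole class and not over genes of like signal.

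FOXA1, the close relative of FOXA2, had a signal of 615 with siIFITM1 and 605 with siLuc at 204667_at (log2 ratio 0.02). At 237086_at it had 119 on both arrays. Both ratios were far within the SD of their class. FOXA2 minus FOXA1 was -1.03 on the log2 scale. GATA6 had 2209 with siIFITM1 and 1856 with siLuc at 210002_at (log2 ratio 0.25, or 1.30 times the SD of brighter probe sets). Its other probe set, 229282_at, was below the floor, with 16.6 in siIFITM1 and 24.0 in siLuc. The median of the 3 endoderm factors was 0.02, which describes FOXA1 and neither of the others.

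**Figure D2:**
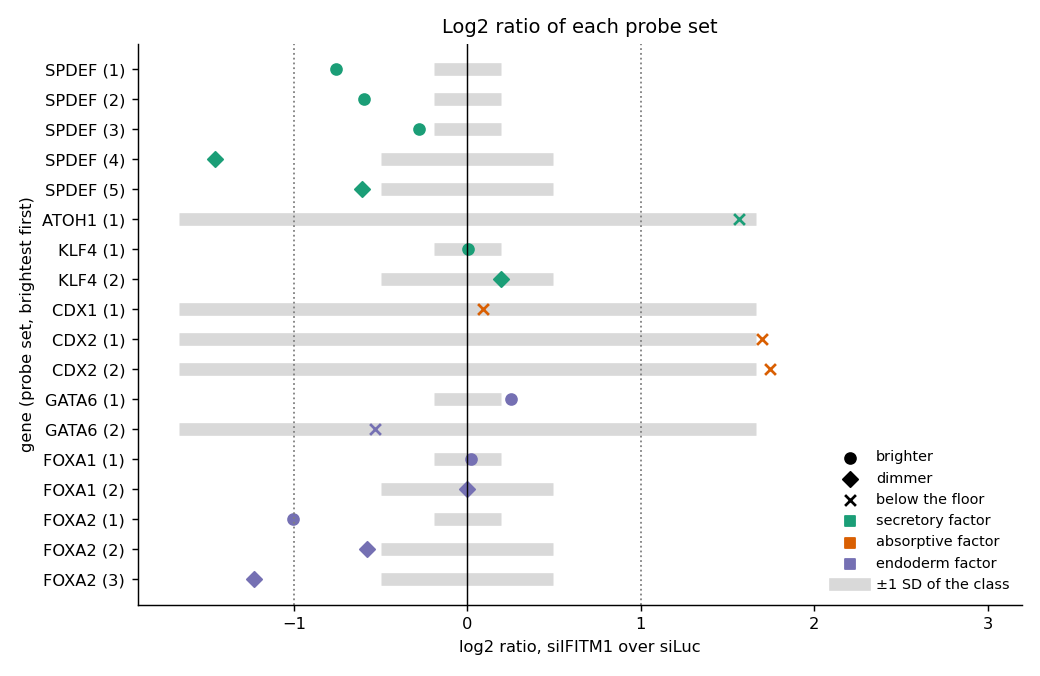
Log2 ratio, siIFITM1 over siLuc, of each probe set, numbered from the brightest within its gene; grey bars span 1 SD on either side of 0 of the ratios among 1 gene's probe sets of the same signal class, and dotted lines mark 2-fold. The 5 probe sets of SPDEF and the 3 of FOXA2 lie left of their grey bars, those of KLF4 and FOXA1 lie inside, and the ratios past 2-fold on the right belong to ATOH1 and CDX2, which did not pass the filter.

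**Figure D3:**
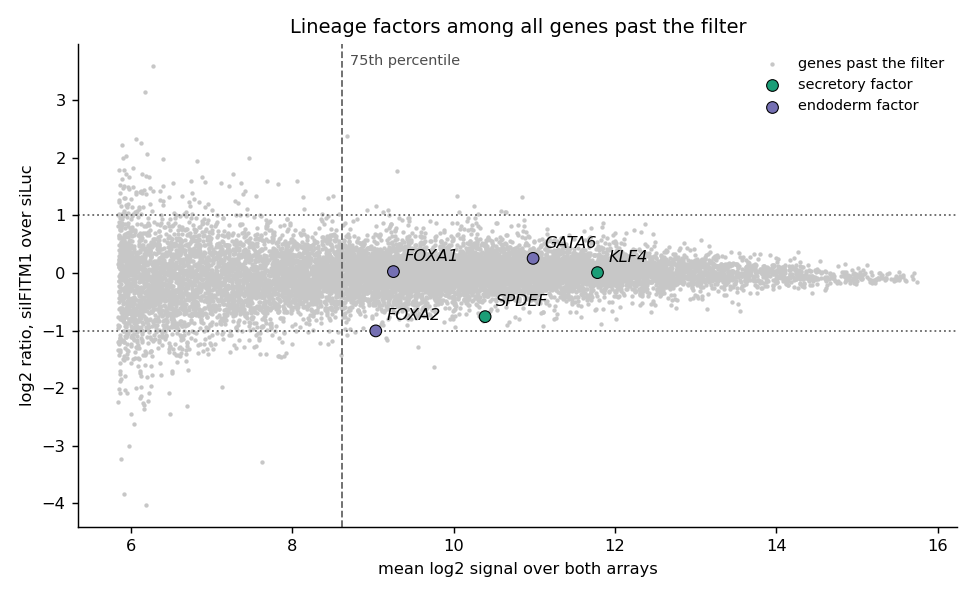
Log2 ratio against mean log2 signal for the 12225 genes that passed the filter (grey), with the 5 lineage factors that passed named; the dashed line is the 75th percentile of signal and dotted lines mark 2-fold. FOXA2 and SPDEF lie at the lower edge of genes of like signal, at -1.01 and -0.76, and FOXA1, KLF4 and GATA6 lie within the body of the cloud.

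Related factors and target genes were read from 10 lists, given as counts and medians beside the 52.6% of all genes that were below 0. The lists held 137 distinct genes, 15 of them in more than 1 list. Of these, 127 were measured and 75 passed the filter, 45 below 0 and 30 above. A single gene, DLL4, was 2-fold apart, which is 1.33% of the 75 beside 3.03% of all genes. Their median log2 ratio was -0.14.

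Of 12 other endoderm factors 5 passed the filter, 1 below 0 and 4 above, with a median of 0.19. The 1 below was FOXA3, the third forkhead relative, with 508 in siIFITM1 and 735 in siLuc (log2 ratio -0.53). The 3 FOXA genes thus ran from FOXA2 through FOXA3 to FOXA1 in size of difference, and FOXA2 minus FOXA3 was -0.47 on the log2 scale. ONECUT2, a cut homeobox factor, had 489 with siIFITM1 and 416 with siLuc, and its 4 probe sets past the filter ran from 0.11 to 1.07. PROX1 and EOMES, both dimmer genes, were at 0.19 and 0.44, that of EOMES with a siLuc signal of 53.9, below the floor.

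Of 13 other absorptive or pan-epithelial factors 9 passed, 5 below 0 and 4 above, with a median of -0.05. BCL6, a transcriptional repressor, had 543 with siIFITM1 and 761 with siLuc (log2 ratio -0.49), and its 3 probe sets ran from -1.77 to -0.49, the lowest with a siIFITM1 signal of 49.8, below the floor. The epithelial ETS factor ELF3 was at -0.23, and HES1, the Notch-induced repressor of ATOH1, at -0.05, with 2399 in siIFITM1 and 2482 in siLuc. PRDM1, a repressor that maintains the neonatal state of the intestine in mice, had 134 with siIFITM1 and 91.5 with siLuc (log2 ratio 0.55), with 3 probe sets from 0.18 to 0.85.

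Of 15 other secretory factors 6 passed, 5 below 0 and 1 above, with a median of -0.17. CREB3L1, a membrane-bound factor of secretory cells, had 987 with siIFITM1 and 1598 with siLuc (log2 ratio -0.69). Its other probe set had a ratio of -2.96, from a siIFITM1 signal of 21.4, below the floor, and a siLuc signal of 166. SOX4, an HMG box factor known in tuft and enteroendocrine differentiation in mice, had 11504 with siIFITM1 and 14703 with siLuc (log2 ratio -0.35), and its 5 probe sets past the filter ran from -0.73 to -0.35. XBP1, the factor of the unfolded protein response that builds secretory capacity, was at -0.18. NEUROG3, the enteroendocrine determinant, was the 1 above 0, at 93.5 with siIFITM1 and 65.0 with siLuc, a dimmer gene.

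All 7 stem and progenitor genes that passed, of 12, were below 0 by their brightest probe set (median -0.18). TCF7L2 also had dimmer probe sets above 0, at 0.11 and 0.28. LEF1, OLFM4, LGR5 and SMOC2 did not pass the filter. ASCL2, a basic helix-loop-helix factor of intestinal stem cells, had 645 with siIFITM1 and 993 with siLuc (log2 ratio -0.62). RNF43 and ZNRF3, ubiquitin ligases that remove Wnt receptors, were at -0.28 and -0.18, and MYC at -0.15. All but ASCL2 and RNF43 were within the SD of 0.193.

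The Notch pathway, upstream of ATOH1, was mixed. Of 21 genes 16 passed, 10 below 0 and 6 above, with a median of -0.09. The ligand gene JAG1 had 2227 with siIFITM1 and 1265 with siLuc (log2 ratio 0.82), and its 4 probe sets past the filter ran from 0.33 to 0.82. LFNG, a glycosyltransferase that modifies Notch, had 776 with siIFITM1 and 1345 with siLuc (log2 ratio -0.79), with its other probe set at -1.09. HES6, of the same family as HES1, was at -0.38. The ligand gene DLL4 was at -1.15, but its siIFITM1 signal of 57.4 lay at the floor, against 128 with siLuc.

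Genes known as targets of these factors were taken from 5 lists, which share members. Of 17 genes tied to SPDEF and goblet cells 13 passed, 10 below 0 and 3 above, with a median of -0.25. The members furthest from 0 were the intestinal mucin gene MUC2 (log2 ratio -0.86), CREB3L1, described above, and the trefoil factor genes TFF3 (-0.63) and TFF1 (-0.59). MUC2 and TFF1 are dimmer genes. The 3 above 0 were KLK1 (0.40), a dimmer gene, ERN2 (0.34, with its other probe set at -0.14) and TSPAN13 (0.04). MUC2, TFF3 and TFF1 are also in the list of 15 FOXA targets, in which 10 passed, 7 below 0 and 3 above, with a median of -0.10. SERPINA1, the antitrypsin gene, was lower in that list, with 4762 in siIFITM1 and 6995 in siLuc (log2 ratio -0.55, and from -0.82 to -0.55 over 3 probe sets). Over probe sets without shared probes alone, the median of the FOXA list was -0.61, but over different genes and probe sets. CDH1 (0.27) and SOX9 (-0.08) then drop out. SERPINA1 is read by a dimmer probe set at -0.82. SFTPB, at -0.04 by its brightest probe set, is read at -0.64 with a siIFITM1 signal of 52.2, below the floor.

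Of 19 genes described as CDX2 targets 10 passed, 4 below 0 and 6 above, with a median of 0.08. The list includes MUC2 (-0.86) and TFF3 (-0.63) from above. CA1, a carbonic anhydrase, was at -0.83 and HEPH, the ferroxidase hephaestin, at 0.66, both dimmer genes. The siIFITM1 signal of CA1, 57.9, lay at the floor, against 103 with siLuc. The other CA1 probe set, below the floor on both arrays, was higher with siIFITM1. Of 18 HNF4A targets 5 passed, 3 below 0 and 2 above, with a median of -0.17. DPP4, a brush border peptidase, had 1416 with siIFITM1 and 1133 with siLuc (log2 ratio 0.32), and its 3 probe sets ran from 0.30 to 0.37. The others named went the other way, SERPINA1, which this list shares with the FOXA list, at -0.55, MAOB, a monoamine oxidase, at -0.24 and CLDN15, a claudin of the intestinal lining, at -0.17. Of 12 genes tied to KLF4 and cell cycle exit 7 passed, 4 below 0 and 3 above, with a median of -0.12. CDKN1C, an inhibitor of cyclin-dependent kinases, had 356 with siIFITM1 and 585 with siLuc (log2 ratio -0.72, and from -1.27 to -0.41 over 4 probe sets), and CDKN1A, the inhibitor that KLF4 is known to activate, had 470 with siIFITM1 and 387 with siLuc (log2 ratio 0.28). The keratin gene KRT13 was at 0.45 and SPRR1A, a squamous envelope protein gene, at -0.42, both dimmer genes.

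**Figure D4:**
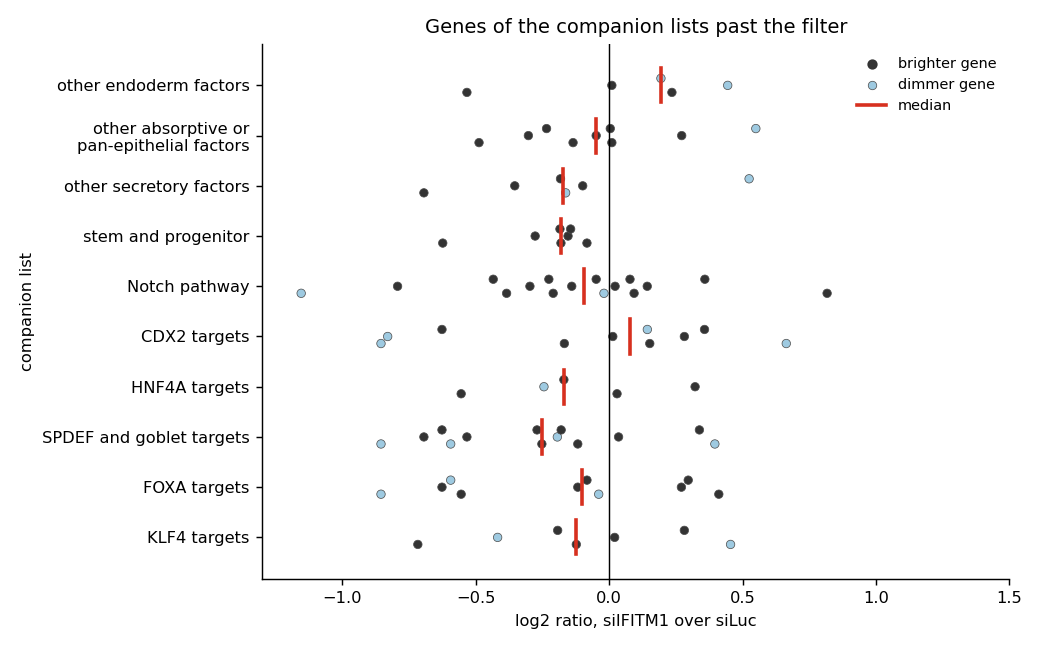
Log2 ratio, siIFITM1 over siLuc, of the genes that passed the filter in each of the 10 lists, with brighter genes dark and dimmer genes light and the list's median as a red line. The medians lie between -0.25 and 0.19, and the genes of stem and progenitor cells all lie below 0.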

How the data were processed

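RNA of 2 HT-29 cultures, 1 per siRNA, was read on 1 Affymetrix array each. The deposited values are intensities made by the authors with MAS5 (version not stated), per the submitters' processing notes. The 2% trimmed mean was 500.1 on both arrays, so they share a scale. Precision is limited by the number of arrays.

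Of 54613 probe sets that are not controls, 41091 named 1 gene, 1801 several and 11721 none in the platform annotation. Current symbols came from RefSeq (GRCh38.p14) by Entrez identifier, where 41037 matched. Signals were taken to log2 as deposited, and the ratio is siIFITM1 over siLuc. The calculation was tested on simulated data with large shifts in probe sets well above the floor and less noise than in these data. That checks the arithmetic and not calls near the 2-fold line or at dim signals. The genes, lists and rules were chosen with earlier results of these data known. From each list the text names up to 4 genes past the filter with the largest absolute ratio, where all probe sets past the filter had the same sign. Other genes of a list are named where they limit how a count or median reads. No likeness of pattern between genes can be measured over 2 arrays. Alternatives were median centring, quantile normalization, a loess trend (span 0.3), a pseudocount of 32, other filters, the mean over probe sets, omission of _x_at and _s_at probe sets, signals raised to the floor, thresholds of 1.5-fold and 3-fold, and other groupings of the factors. Analyses used Python 3.11.15, numpy 2.4.6, pandas 2.3.3, scipy 1.17.1, statsmodels 0.14.6 and matplotlib 3.10.9.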

Additional observations from a re-analysis of the deposited data

How the results depend on the processing

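The log2 ratio of FOXA2 ran from -1.01 to -0.94 over 9 alternatives and that of SPDEF from -0.77 to -0.72 over 8, with no change of sign. Omission of probe sets with shared probes leaves no SPDEF, KLF4 or IFITM1 value, and the count of factors below 0 was then 1. FOXA2 stood so close to the line that the number of factors 2-fold apart was 0 under median centring, quantile normalization, the loess trend, the pseudocount of 32, the mean over probe sets and the 3-fold threshold, 2 at 1.5-fold, and 3 with no filter, where ATOH1 and CDX2 enter. The median of the secretory factors was 0.00473 with no filter and -0.76 with KLF4 left out. Over the array, 144 genes were 2-fold apart with the pseudocount, 3950 with no filter, 21 with the filter at the 75th percentile, 1408 at 1.5-fold and 71 at 3-fold. The FOXA target list moved to -0.61 without shared probes, a setting in which some of its genes drop out. The other list medians moved by less than the SD of 0.367 among 1 gene's probe sets. That of the SPDEF and goblet list ran from -0.39 to -0.20. No absorptive factor passed a filter, and with none their median was 0.90, from signals below the floor, and HNF4A could not be moved between groups. Signals below 57.4 give ratios too scattered to read. No paired analysis was possible because there was 1 array per siRNA.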

Other observations

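Markers of stomach and liver, organs that share the endoderm factors, were mostly dim in both cultures. Of 4 stomach markers 2 passed the filter. TFF2, a trefoil peptide of the stomach, had 271 with siIFITM1 and 187 with siLuc (log2 ratio 0.53), and PGC, the gene of pepsinogen C, had 117 with siIFITM1 and 116 with siLuc, each by its brightest probe set. GKN1 and ATP4A were below the floor on both arrays. Of 4 liver markers 2 passed. AFP, the fetal albumin relative, had 110 with siIFITM1 and 33.8, below the floor, with siLuc, and CYP3A4 had 122 with siIFITM1 and 113 with siLuc. ALB and F9 were below the floor on both arrays. Summed over the 4 genes of each list, the signal was 400 with siIFITM1 and 327 with siLuc for stomach, and 261 with siIFITM1 and 201 with siLuc for liver. All 4 genes that passed were dimmer genes.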
